A study of Mus musculus with 12 samples.

Results

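A group of transcription factors that act in the airway epithelium and its progenitors was followed through the RNA sequencing of laser-wounded airway organoids. They were chosen by name, as the rows for Sox2, Sox4, Sox9, Sox21, Nkx2-1, Foxa1, Foxa2, Grhl2, Elf3 and Klf5, which are 10 of the 55401 genes listed. Of these, 9 were among the 13792 genes with enough counts to be tested (a normalized count of 10 or more in 6 or more libraries), and Foxa2 was not. The organoids were grown from airway epithelial cells isolated from the lungs of wildtype C57BL/6J mice aged 10 to 14 weeks. All of them, controls included, had been transduced with a lentiviral vector for a Histone2A-mCherry fusion protein driven by a p63 promoter. In the ablation group, 10 neighbouring cells per organoid were destroyed with a femtosecond laser, and the control group was left untreated. Each library held the RNA of a dish of 45 organoids, collected 4.5 h after ablation, wounded and unwounded cells together.

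There were 6 ablation and 6 control libraries. They form 6 pairs, numbered 1, 3, 4, 5, 6 and 7, in which both dishes share the passage, the day of culture and the date. Pairs 1 and 3 carry the passage label P2+14, pairs 4 and 5 P2+15, and pairs 6 and 7 P2+16. Cultures were harvested on day 14 (pairs 1 and 4), 15 (pair 5), 18 (pair 6), 19 (pair 7) or 20 (pair 3). Pairs 1, 3 and 5 belong to one run of library numbers (library set 1) and pairs 4, 6 and 7 to another (library set 2). The titles of controls 4, 6 and 7 also carry the word ablation, whereas their treatment label says control, and they were taken as controls. Values within library set 1 do not use them. Normalized counts summed to between 27297950 and 28504390 per library, and the whole reads that could be recovered for 9 libraries to between 23631212 and 29775699. No label says that the dishes came from separate animals, so p-values measure only the spread between these dishes, which may come from one culture.

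SOX proteins bind DNA through an HMG box and bend it. Sox2 is needed for the airway fate of the foregut and for basal cells, Sox21 is a relative that is expressed with it in the airway, Sox9 marks the distal lung tips and submucosal glands, and Sox4 acts broadly in progenitors. Nkx2-1 is the homeodomain factor that defines lung and thyroid endoderm, and Foxa1 and Foxa2 are forkhead factors that can bind closed chromatin. Grhl2, the ETS factor Elf3 and the zinc finger factor Klf5 are general epithelial regulators that maintain cell junctions, barrier genes and proliferation.

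All factors but Foxa2 were clearly expressed. Per kilobase of exon, the mean level over the 12 libraries was 3262 ± 494 normalized counts (SD) for Elf3, 1807 ± 219 for Sox2 and 996 ± 52.2 for Klf5. Foxa1 followed with 714 ± 133 per kb, Nkx2-1 with 687 ± 134 and Sox4 with 647 ± 98.2. Grhl2 lay at 510 ± 46.1 per kb, Sox21 at 409 ± 79.1 and Sox9 at 276 ± 79.6. Elf3 was above Sox2, and Sox2 above Klf5, with ranges over the 12 libraries that did not overlap. Foxa1, Nkx2-1 and Sox4 could not be put in order, since Foxa1 was above Nkx2-1 in 5 of 12 libraries and Nkx2-1 above Sox4 in 7 of 12. Sox4 was above Grhl2 in 11 of 12 libraries, and each of the other neighbours in the order kept its place in all 12. Foxa2 had a mean of 2.60 ± 1.55 per kb, so that its close relative Foxa1 was measured far above it in every library, and Sox9, the next higher factor, exceeded it 106.2-fold.

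**Figure D1:**
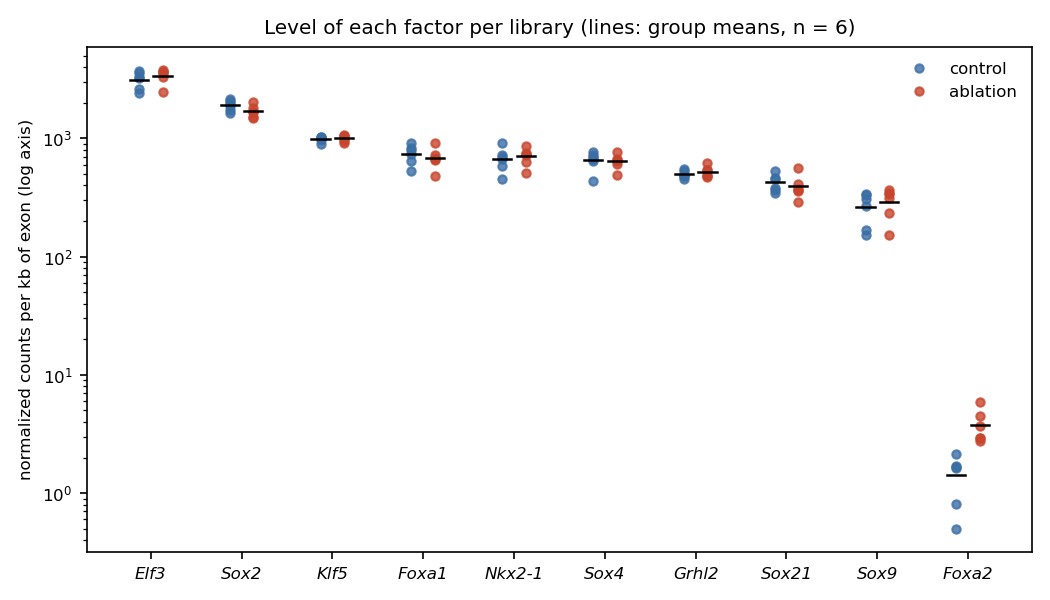
Level of each factor in normalized counts per kb of exon, on a log axis, in the 6 control (blue) and 6 ablation (red) libraries, with black lines for the group means. Elf3 lies highest at a mean of 3262 and Foxa2 lowest at 2.60, where its control and ablation points do not overlap.

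Markers placed these levels in a basal-rich epithelium. All 13 basal cell markers were tested, with Krt5 at a mean of 276858 normalized counts, Krt14 at 239821 and Trp63 at 8674. Of the 10 secretory markers 7 were tested, led by Cyp2f2 with 49001 and Ltf with 30411, whereas the club cell protein gene Scgb1a1 had a mean of 3.30. Of the 4 hillock markers 3 were tested, Krt13 with 29880, Ecm1 with 25463 and Krt4 with 9195, while Cldn3 had a mean of 2.38. Of the 12 multiciliated markers only 3 were tested, and Foxj1, the master regulator of motile cilia, had a mean of 9.87. Among the defining genes of alveolar type 2 cells, Sftpc and Sftpb were listed at 0 in every library, while 4 of the 9 genes of that list were tested, Abca3 with a mean of 1125, Etv5 with 745, Sftpd with 165 and Lyz2 with 27.2 normalized counts. Since these are bulk samples, fewer cells of a type and less RNA per cell cannot be told apart in any value given here.

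The comparison of ablated with untreated organoids asked whether these factors had moved within 4.5 h of the wound. Differences were small: no tested factor changed its group mean by more than 1.13-fold. Of the 9 factors, 5 were higher after ablation (Sox9, Nkx2-1, Grhl2, Elf3 and Klf5) and 4 lower (Sox2, Sox21, Sox4 and Foxa1). Their median log2 fold change was 0.02, against -0.0036 over all genes tested. In the model of condition and library set (limma, p-values adjusted over all 13792 genes by the Benjamini-Hochberg method), 0 of the 9 factors passed an adjusted p of 0.05, as did 0.0% of all genes, and at an unadjusted p under 0.05 it was 0 of the 9 factors and 7.85% of all genes. The groups did not overlap for 0 of the 9 factors and for 0.457% of all genes. When the pair took the place of the library set, Sox2 passed, 1 of the 9, beside 1.09% of all genes in either direction (0.674% higher and 0.413% lower). At an unadjusted p under 0.05, the paired model had 4 of the 9 factors (Sox2, Sox21, Sox9 and Foxa1), beside 17.6% of all genes.

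**Figure D2:**
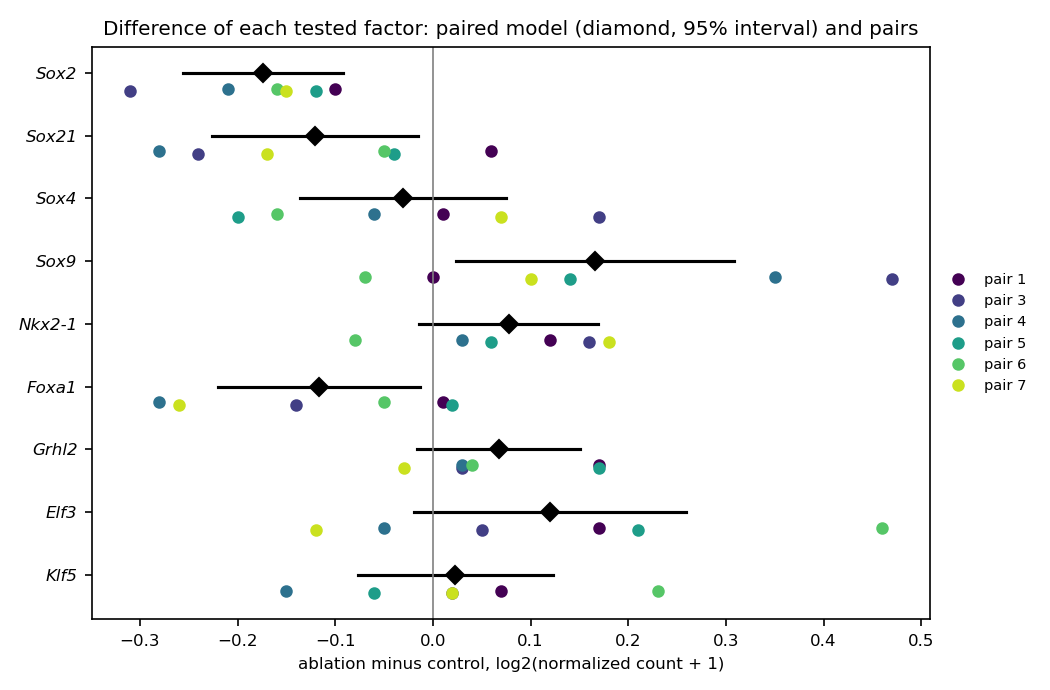
Ablation minus control for the 9 tested factors, on the log2(normalized count + 1) scale. Diamonds and bars give the estimate of the paired model with its 95% interval, coloured points the 6 pairs. Sox2 has all 6 points below 0, and each of the other factors has points on both sides of 0.

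Sox2 was lower in every pair. Its normalized counts after ablation were 4132.3, 3451.0, 3079.8, 3107.8, 3463.5 and 3729.0 in pairs 1, 3, 4, 5, 6 and 7. In the controls of the same pairs they were 4427.8, 4269.5, 3568.1, 3376.4, 3868.9 and 4126.8. Each ablated dish thus stood below its own control, while the groups as a whole overlapped. On the log2 scale, the SD of the pair means was 0.15 and that of the dishes within pairs 0.13. The mean was 3494 ± 397 after ablation and 3940 ± 410 in the control (SD, n = 6 each), a ratio of 0.89. Log2 differences within pairs ran from -0.31 (pair 3) to -0.10 (pair 1), with a mean of -0.17 ± 0.08 (SD). In the paired model the log2 fold change was -0.17 ± 0.04 (SE, 95% interval -0.26 to -0.09) with limma's adjusted p of 0.0488, and the model with the library set gave the same value with an adjusted p of 0.642. An exact two-sided sign-flip permutation test over the 6 pairs gave p = 0.0312, the smallest that 6 pairs can give. Of the 9 tested factors, Sox2 was the 1 that moved one way in all 6 pairs, as did 9.8% of all genes tested (4.63% lower and 5.17% higher). Both library sets gave a like value, with log2 fold changes of -0.18 within set 1 (limma adjusted p = 0.228) and -0.17 within set 2 (0.201), and the difference between them was 0.0027 ± 0.08 (SE) in the paired model. The call in the paired model stood just inside its threshold and was lost when any pair was left out, with adjusted p-values between 0.0541 and 0.161 and log2 fold changes between -0.19 and -0.15.

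The Sox2 gene is a single exon of 2057 bases on the plus strand (GRCm38, chr3:34650405-34652461). It lies within the span of Sox2ot, a long noncoding RNA on the same strand whose exons do not overlap it. Sox2ot was counted at 1.63% of the level of Sox2. Its log2 fold change was 0.25, with 4 of 6 pairs higher and limma's adjusted p at 0.717 with the library set and 0.446 in the paired model. Among the genes whose values over the 12 libraries lay closest to those of Sox2 were Cyp4f16 and Tmem164, with root mean square differences of 0.07 and 0.075 on the centred log2 scale. Tmem164 was lower in 6 of 6 pairs as well, and Cyp4f16 in 4. The 250 bases before the RefSeq start of Sox2 (GRCm38.p6, chr3:34649745-34649994, plus strand) are shown as the upstream sequence of the factor that was lower in every pair, beside the same stretch for Foxa2 (GRCm38.p6, chr2:148046970-148047219, minus strand), the factor that was barely detected and whose groups did not overlap. Both are printed 5′ to 3′, with capitals for CCAAT boxes (CCAAT) and GC boxes (GGGCGG) on either strand.
Sox2: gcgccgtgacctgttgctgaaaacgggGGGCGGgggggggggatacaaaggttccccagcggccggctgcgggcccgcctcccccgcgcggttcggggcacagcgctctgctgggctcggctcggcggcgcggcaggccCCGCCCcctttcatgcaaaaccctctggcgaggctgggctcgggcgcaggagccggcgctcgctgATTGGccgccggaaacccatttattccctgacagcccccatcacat
Foxa2: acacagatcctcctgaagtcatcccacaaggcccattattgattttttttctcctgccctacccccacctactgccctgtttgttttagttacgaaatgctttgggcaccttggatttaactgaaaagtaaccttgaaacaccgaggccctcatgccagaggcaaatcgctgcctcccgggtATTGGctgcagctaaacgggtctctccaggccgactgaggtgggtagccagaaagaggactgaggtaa

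The Sox2 sequence has a GC content of 72.0% and holds 2 GC boxes and 1 CCAAT box, and the Foxa2 sequence has 50.8% and holds 1 CCAAT box. Of the 10 factors, 7 had such a sequence in the RefSeq table, Foxa2 with 3 starts. Of the 32851 upstream sequences of all genes, 33.8% hold a CCAAT box and 32.7% a GC box. All such shares are per sequence, whereas a factor was counted if any of its starts held a match, so the 2 are not in the same unit. A CCAAT box was present for 5 of the 7 factors (Sox2, Sox4, Foxa1, Foxa2 and Elf3) and a GC box for 4 (Sox2, Nkx2-1, Foxa1 and, at another of its starts, Foxa2). The core letters known for the factors themselves were searched as well. The FOX core TGTTTAC stood before Foxa1 alone (3.17% of all sequences), the SOX core AACAAT before Nkx2-1 alone (9.42%) and the NKX2-1 core CAAGTG before Elf3 alone (11.6%). The GRHL core AACCNGTT (1.79%) was found before none of the 7, and the TATA box TATAAA (12.4%) at another start of Foxa2 only. Both strands were searched, and a match is a run of letters, not a measured binding site.

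Sox21 (GRCm38, chr14:118233232-118237030, minus strand, 1 exon), a relative of Sox2, had 1493 ± 339 normalized counts after ablation (lowest 1102, median 1410, highest 2113) and 1611 ± 275 in the control (1303, 1588 and 2028). It was lower in 5 of 6 pairs and the groups overlapped widely. Its log2 fold change was -0.12. The 95% interval ran from -0.43 to 0.19 with the library set (limma adjusted p = 0.862) and from -0.23 to -0.01 in the paired model (0.225). Within library sets 1 and 2 the value was -0.07 and -0.17. The sign was opposite in the 9 libraries with recovered reads, at 0.02 with edgeR and 0.03 with DESeq2. Exons of Gm4675, an antisense RNA counted at 4.46% of Sox21, overlap 713 bases of the gene.

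Sox4 (GRCm38, chr13:28948919-28953713, minus strand, 1 exon) had 3058 ± 425 normalized counts after ablation (lowest 2364, median 3128, highest 3659) and 3145 ± 550 in the control (2102, 3270 and 3665). Of the 6 pairs, 3 were higher and 3 lower, and the paired model put the log2 fold change of -0.03 between -0.14 and 0.07 (limma adjusted p = 0.785). It was 0.0033 without pair 5, -0.0044 without pair 6, and -0.07 and -0.05 without pairs 3 and 7. Of the 75-base stretches of its transcript, the length of a read, 53.8% also occur in the antisense RNA Gm26735, which the deposited table does not list. The libraries were made with a kit that keeps the strand, but the strand setting of the counting is not given in the sources used here.

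Sox9 (GRCm38, chr11:112782224-112787760, plus strand, 3 exons) was the tested factor that varied most, 2.40-fold from the lowest to the highest library. After ablation its normalized counts were 628, 968, 1425, 1392, 1300 and 1508 in pairs 1, 3, 4, 5, 6 and 7. In the controls they were 627, 699, 1116, 1260, 1363 and 1407. It was higher after ablation in pairs 3, 4, 5 and 7, lower in pair 6 and level in pair 1, and the groups overlapped. The log2 fold change was 0.17 (95% interval 0.02 to 0.31 in the paired model, limma adjusted p = 0.214, and -0.24 to 0.58 with the library set, 0.856). Without pair 3 it was 0.11, and the paired interval then ran from -0.03 to 0.24 (limma unadjusted p = 0.106 and adjusted p = 0.456). The larger contrast lay between passages. The 4 dishes labelled P2+14 had 627 to 968 normalized counts and the 8 later dishes 1116 to 1508, without overlap. All 4 earlier dishes are in library set 1, whose pair 5 is of the later passage and had a mean of 1326. Among all genes tested, 2.35% were lower in all 4 of these dishes than in the other 8, Nkx2-1 being the other factor among them. Passage, date and pair cannot be told apart here.

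Nkx2-1, the lung identity factor (GRCm38, chr12:56531958-56536908, minus strand), had 1998 ± 349 normalized counts after ablation (lowest 1440, median 2080, highest 2463) and 1910 ± 438 in the control (1293, 1928 and 2603). It was higher in 5 of 6 pairs, with groups that overlapped, and the paired model put the log2 fold change of 0.08 between -0.01 and 0.17 (limma adjusted p = 0.361). It was 0.11 within library set 1 and 0.04 within set 2, and 0.14 with both edgeR and DESeq2 on the 9 libraries with recovered reads. The dishes P2+14 were again lowest, with pair means of 1712 and 1366 against 2007 to 2533 in the other pairs. Genes that NKX2-1 is known to activate in the lung were mostly near 0. Of 8 such genes, only the lipid transporter Abca3 (1125 ± 111 after ablation, 1124 ± 100 in the control) and the secretoglobin Scgb3a2 (12.9 ± 5.33 and 14.3 ± 4.00) were tested, and neither passed. Of the others, Sftpc and Sftpb were listed at 0, and Scgb1a1, Sftpa1, Napsa and Cldn18 had means of 3.30, 2.86, 1.06 and 0.0833 normalized counts. Sfta3-ps, which lies 2531 bases from Nkx2-1 on the same strand, was counted at 20.7% of its level and had a log2 fold change of 0.34 (limma adjusted p = 0.569, and 0.122 in the paired model).

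Foxa1 (GRCm38, chr12:57540628-57546916, minus strand) had 2283 ± 456 normalized counts after ablation (lowest 1603, median 2248, highest 3027) and 2471 ± 450 in the control (1764, 2558 and 3009). It was lower in 4 of 6 pairs, and the groups overlapped widely. The log2 fold change was -0.12 (95% interval -0.22 to -0.01 in the paired model, limma adjusted p = 0.228, and -0.43 to 0.20 with the library set, 0.866). The log2 fold change was -0.20 within library set 2 and -0.04 within set 1, and the difference between the sets did not pass (-0.16, unadjusted p = 0.0837 and adjusted p = 0.675 in the paired limma model, in which 0.00725% of all genes passed). In the 9 libraries whose reads were recovered, Foxa1 and Sox4 had log2 fold changes of 0.02 and 0.03 with edgeR, opposite in sign, like that of Sox21, to those of limma on 12 libraries. Over the 12 libraries, Foxa1 and Sox21 were the pair of factors with the most similar values (root mean square difference 0.103 on the centred log2 scale), and Sox21 and Sox9 the least similar (0.61), with a median of 0.255 over all 36 pairs of factors.

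Foxa2 (GRCm38, chr2:148042877-148046969, minus strand) was close to the limit of detection and was the one factor whose groups did not overlap. After ablation it had 8.77, 14.0, 6.93, 6.57, 6.91 and 10.7 normalized counts in pairs 1, 3, 4, 5, 6 and 7. The controls had 1.93, 5.12, 4.03, 3.83, 3.95 and 1.17. Every ablated dish was above every control dish, and all 6 pairs were higher. The mean was 8.98 ± 2.91 after ablation and 3.34 ± 1.48 in the control (SD, n = 6 each), a ratio of 2.69. An exact two-sided permutation test over the 12 libraries gave p = 0.00216, the smallest it can give, and the sign-flip test over the pairs p = 0.0312. This p-value is not adjusted over all genes, and Foxa2 was chosen with earlier results of these data known. In the fits without a count minimum, the log2 fold change was 1.24 with limma's adjusted p of 0.465 with the library set and 0.0517 in the paired model, so Foxa2 did not pass in either. The mean log2 difference within pairs was 1.24 with a pseudocount of 1, 1.37 with 0.5 and 0.74 with 5. Among the 5071 genes below the count minimum with a mean of at least 1, a limit set after its values were seen, 0.197% had groups without overlap and higher values after ablation, and 0.0592% lower values.

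The counts behind Foxa2 were few. In 4 ablation libraries with recovered reads there were 34 reads, 7 to 11 per library, or 0.297 reads per 1e6 (exact 95% Poisson interval 0.206 to 0.415). In 5 control libraries there were 16 reads, 1 to 5 per library, or 0.116 reads per 1e6 (0.0663 to 0.188). The intervals do not overlap, and they cover counting error only. Control 7, which had the lowest value, was also the library with the fewest reads of these 9 (23631212). Without any one pair the means stayed apart, as they must for groups that do not overlap, with log2 differences between 1.00 and 1.36. No 75-base stretch of Foxa2 occurs in a transcript of another gene, Foxa1 included.

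**Figure D3:**
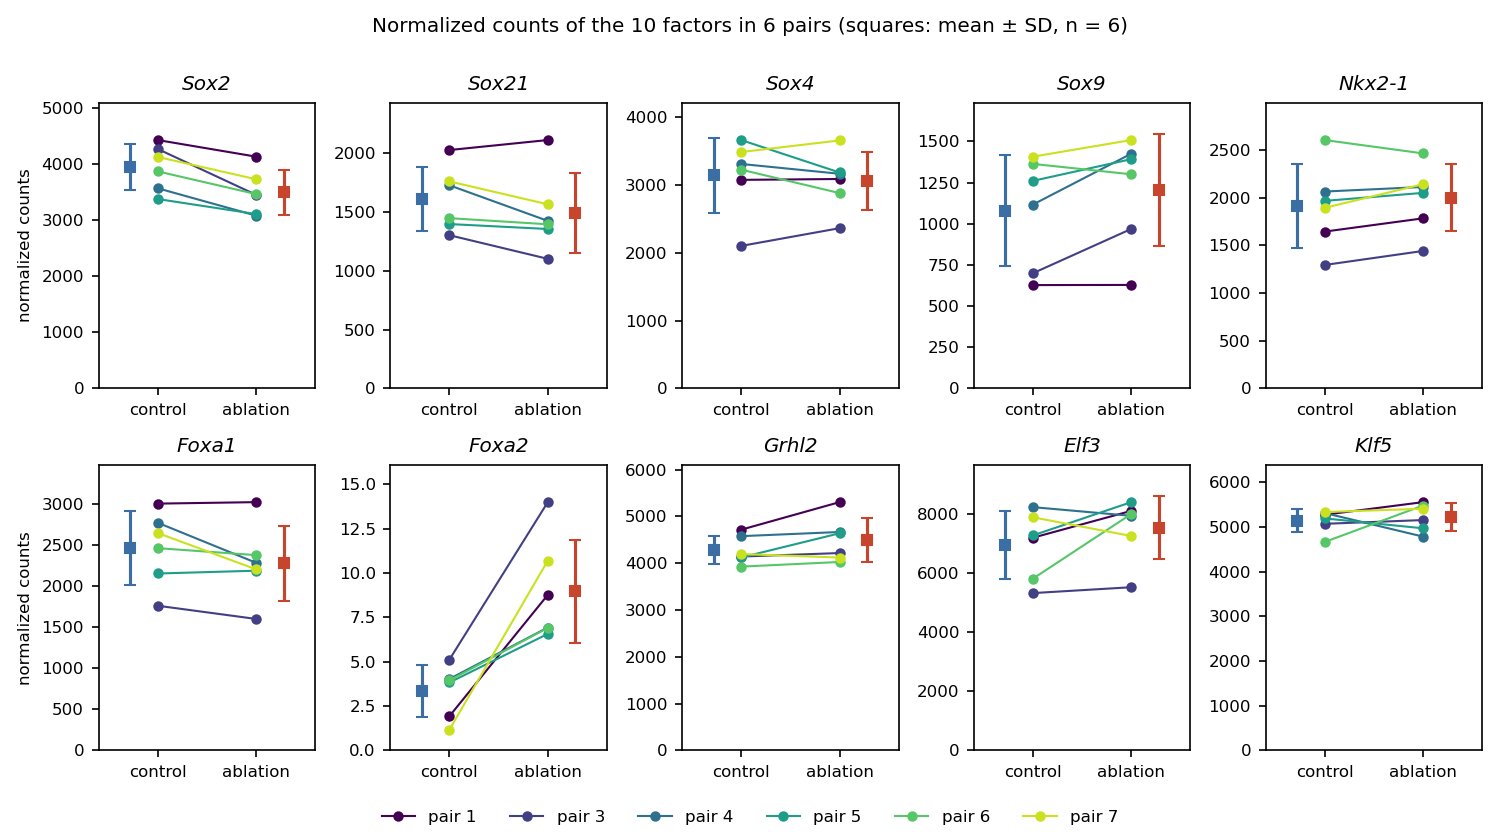
Normalized counts of the 10 factors in each dish, on axes that start at 0. Lines join the control and the ablated dish of a pair, and squares with bars give mean ± SD (n = 6). Foxa2 lies at 1.17 to 5.12 in the controls and at 6.57 to 14.0 after ablation, the lines of Sox2 fall in all 6 pairs, and the other panels have lines in both directions.

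Grhl2, which maintains epithelial junctions (GRCm38, chr15:37233036-37363569, plus strand, 17 exon blocks), had 4497 ± 478 normalized counts after ablation (lowest 4027, median 4429, highest 5306) and 4281 ± 302 in the control (3928, 4170 and 4717). It was higher in 5 of 6 pairs, by 0.17 on the log2 scale in pairs 1 and 5, by 0.03 to 0.04 in pairs 3, 4 and 6, and lower by -0.03 in pair 7. The paired model put the log2 fold change of 0.07 between -0.02 and 0.15 (limma adjusted p = 0.387). It was 0.12 within library set 1 (limma unadjusted p = 0.0419 and adjusted p = 0.342) and 0.01 within set 2 (0.821 and 0.956), and the difference between the sets did not pass (-0.11, unadjusted p = 0.157 and adjusted p = 0.755 in the paired limma model). With edgeR and DESeq2 on the 9 libraries with recovered reads it was 0.11 and 0.11. The 6 genes listed as activated by GRHL2 were all tested. With the library set 0 of them passed, beside 0.0% of all genes, and in the paired model 0, beside 1.09%. At an unadjusted p under 0.05 the paired limma model had 1 of the 6, Cldn4, beside 17.6% of all genes. E-cadherin (Cdh1) had 15971 ± 1007 and 15794 ± 1269, and the tight junction gene Cldn4 had the largest log2 fold change of the 6, 0.11 (limma adjusted p = 0.264 in the paired model). The antisense RNA Gm16136, which shares 169 bases of exon with Grhl2, was counted at 23.7% of its level and had a log2 fold change of -0.07.

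Elf3 (GRCm38, chr1:135253575-135258568, minus strand) was the most abundant factor, with 7524 ± 1055 normalized counts after ablation (lowest 5512, median 7955, highest 8386) and 6942 ± 1150 in the control (5314, 7223 and 8217). Of the 6 pairs, 4 were higher and 2 lower, from -0.12 in pair 7 to 0.46 in pair 6 on the log2 scale. The paired model put the log2 fold change of 0.12 between -0.02 and 0.26 (limma adjusted p = 0.354). It was 0.05 without pair 6, and 0.24 with edgeR and 0.25 with DESeq2 on the 9 libraries with recovered reads (adjusted p = 0.803 and 0.877).

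Klf5 (GRCm38, chr14:99298691-99315036, plus strand) was the steadiest factor, with no more than 1.19-fold between its lowest and highest library. It had 5225 ± 307 normalized counts after ablation (lowest 4784, median 5281, highest 5555) and 5140 ± 253 in the control (4663, 5232 and 5333). The paired model put its log2 fold change of 0.02 between -0.08 and 0.12 (limma adjusted p = 0.838). The direction was not stable, since the value was -0.02 without pair 6, 0.01 without pair 1, 0.04 without pair 5 and 0.06 without pair 4.

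In 8 of the 9 tested factors, all but Klf5, the SD of the pair means exceeded that of the dishes within pairs, as it did in 58.9% of all genes tested. In Sox9 it was 0.49 against 0.18 on the log2 scale. Pair 3, the culture of day 20, held the lowest pair mean for 5 of the 9 (Sox21, Sox4, Nkx2-1, Foxa1 and Elf3), and 23.4% of all genes tested had theirs there. Pair 1, of the same passage but day 14, held the highest pair mean for 5 of the 9 (Sox2, Sox21, Foxa1, Grhl2 and Klf5), as did 24.0% of all genes. Pair 3 also had the lowest sum of the secretory markers (56965 normalized counts, against 70726 to 96130 in the other pairs) and the highest sum of the basal markers (811033, against 651679 to 796234). Cyp2f2 (mean 49001) and Ltf (30411) made up most of the secretory sum, and Krt5 (276858) and Krt14 (239821) most of the basal sum. Pair 1 had the highest sum of the hillock markers (74733, against 58812 to 66705). It also had the highest sum of the 6 goblet markers (602, against 255 to 287), but this sum is almost all Agr2 (mean 316), the only one of the 6 with enough counts to be tested, since the means of Muc5ac, Spdef, Foxa3, Tff2 and Gp2 were 0.514 to 3.16 normalized counts. The part of these markers in the values of the factors was not tested.

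**Figure D4:**
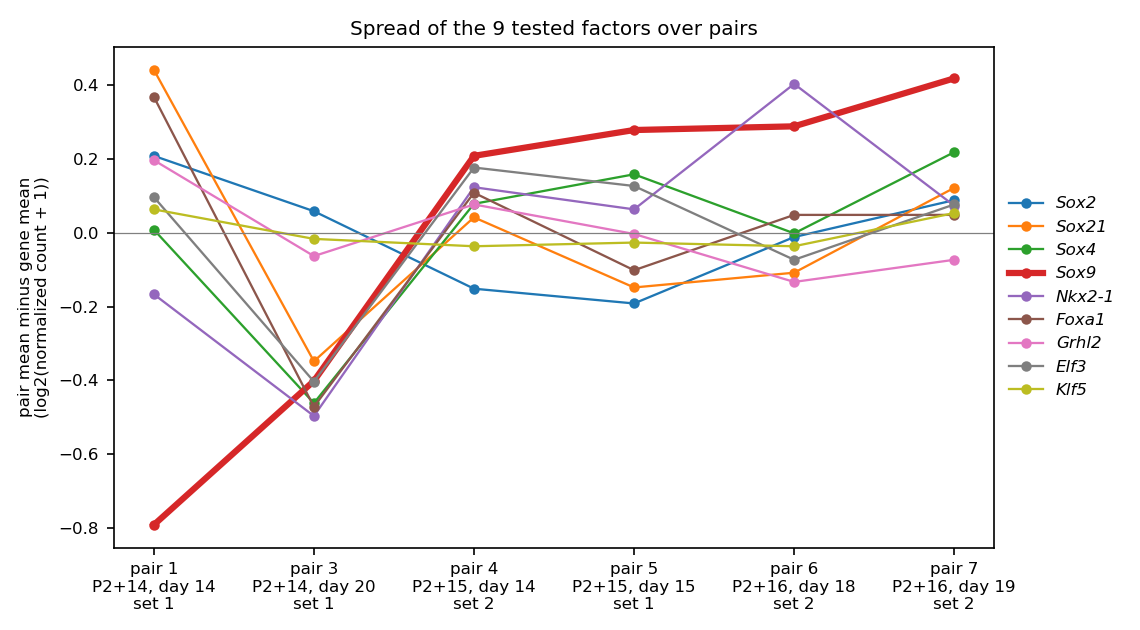
Mean of the 2 dishes of each pair minus the mean of the gene over pairs, on the log2(normalized count + 1) scale, for the 9 tested factors, with pairs ordered by passage and culture day. Pair 3 lies low for 5 factors, Sox9 (thick line) is lowest in pairs 1 and 3, and Klf5 stays near 0.

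Relatives of the 10 factors were counted in the same fits, and none passed in the model with the library set. Of 15 other SOX genes, 7 were listed at 0 and 6 were tested, of which 0 passed in the paired limma model (1.09% of all genes) and 1 had an unadjusted p under 0.05 (17.6% of all genes). Sox13 was the most abundant (842 normalized counts) and Sox12 differed most, with a log2 fold change of -0.27, lower in 6 of 6 pairs (limma adjusted p = 0.169 in the paired model). Of 6 tested GRHL and ETS relatives 0 passed (1 unadjusted, Elf2), and Ehf, the most abundant of them, had 10570 ± 1435 after ablation and 9791 ± 1434 in the control. Of 10 tested forkhead genes 0 passed (2 unadjusted, Foxp4 and Foxq1), with Foxo3 the most abundant (4062) and Foxn1 the one that differed most (log2 fold change -0.18, limma adjusted p = 0.479 in the paired model).

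Among 13 tested KLF relatives, 1 rose and 1 fell in the paired model, in which 1.09% of all genes passed. At an unadjusted p under 0.05 there were 6 of the 13 (5 higher and 1 lower), beside 17.6% of all genes. Klf10, an early gene of TGF-beta signaling, rose from 2045 ± 215 to 2390 ± 315 normalized counts (log2 fold change 0.22, limma adjusted p = 0.0352), and Klf15 fell from 107 ± 48.9 to 59.8 ± 34.5 (-0.89, 0.012). Klf4, the most abundant of them at 18657, had a log2 fold change of 0.12. Among 37 other airway and epithelial factors, 2 rose and 1 fell in the paired model, beside the same 1.09% of all genes, with a median log2 fold change of -0.04. At an unadjusted p under 0.05 there were 13 of the 37 (5 higher and 8 lower), beside 17.6% of all genes. Trp63, the basal cell factor, rose from 7505 ± 917 to 9844 ± 1141 (0.39, limma adjusted p = 0.00825). Of the 13 basal markers, of which Trp63 is one, 4 were higher and 9 lower, with a median log2 fold change of -0.11. Barx2, a homeobox gene of epithelia, rose from 2696 to 3419 in the controls to 3602 to 4224 after ablation (0.32, 0.0101). Its groups did not overlap, as was the case for 0.457% of all genes tested. Trp73, a p63 relative needed for multiciliated cells, fell from 476 ± 126 to 317 ± 131 (-0.62, 0.00899). Each of these 5 genes moved the same way in 6 of 6 pairs, as did 9.8% of all genes tested. They are named because the paired model, fitted to the same pairs, called them, so this adds no support. Their limma adjusted p-values with the library set lay at 0.187 (Trp63 and Barx2), 0.616 (Trp73) and 0.619 (Klf10 and Klf15). The paired model called 150 genes in all, but 8 when pair 4 was left out. It called 0 with a plain variance model (lowest limma adjusted p = 0.102), so that the calls of these 5 genes were lost there.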

How the data were processed

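The 12 RNA libraries were grouped by their treatment label. The authors used the nf-core pipeline for alignment and counting on the GENCODE annotation of GRCm38.p6 and divided the counts of each library by a DESeq2 size factor. These normalized counts, a signal without a fixed unit, are the deposited values used here. The deposited table also holds the authors' own comparison (base mean, log2 fold change, standard error, Wald statistic, p-value and adjusted p-value), which was not used. Exon lengths were taken from the same table. In all 12 libraries the low values were whole multiples of a step (all within 0.05 of a whole number), and 9 libraries gave back whole reads. Ablation 3, ablation 4 and control 4, with the steps nearest to 1 (0.9991, 0.9896 and 1.0065), were not accepted as recovered. Ablation 6 and control 6, with steps of 0.9873 and 0.9877, were accepted. Count models (edgeR 4.0.16, DESeq2 1.42.0) were therefore run as alternatives on 9 libraries only.

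Genes that reached a normalized count of 10 in 6 or more libraries were fitted with limma 3.58.1 in R 4.3.3 on log2(normalized count + 1), with condition and library set as factors, since the batch in the authors' model is not named. Variances were moderated by robust, trended eBayes, with p-values adjusted over all genes tested with a threshold of 0.05. The paired model (replicate block) replaced the library set with the pair. Deviations of same-numbered dishes from their group means correlated across genes with r = 0.62, 0.49, 0.21, 0.32, 0.38 and 0.33 for pairs 1, 3, 4, 5, 6 and 7, and the titles give both dishes of a pair the same passage, day and date. Since genes are not independent, these r are given without a test. A log2 fold change on this scale understates the change of low genes. The fits were tested on simulated data.

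The 10 factors, the 20 gene lists and the tests were chosen with earlier results of these data known. Named were all 10 factors, every list gene past the threshold in either model and, where a list had none, its most abundant gene and the one with the largest log2 fold change, with the neighbours within 10 kb and the nearest genes by values. Some genes that this rule names are not reported here. Upstream sequences are from RefSeq (GRCm38.p6), trimmed to the 250 bases before the start. Shared 75-base stretches were searched on both strands of the GENCODE M21 transcripts, whose gene identifiers matched 54349 of the 55401 listed. Alternatives were other pseudocounts (0.5 and 5), other count minimums (none and 50), quantile and TMM normalization, plain eBayes, no library set, the pair as a block, each library set alone, each pair left out and the count models. A fit without a count minimum in the paired model was added after the data were seen.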

Additional observations from a re-analysis of the deposited data

Results flagged for a closer look

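No library stood far enough from the others of its group to be listed here, in any of the 20 sets of 6 libraries screened (10 factors in 2 groups, by the ratio of the gap to the range). None of the 9 tested factors passed the test of a difference in response between the library sets.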

How the results depend on the processing

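Sox2 was lower under all 28 alternatives, with log2 fold changes from -0.19 to -0.15. It passed the threshold only with the replicate block, at -0.17 (limma adjusted p = 0.0488), at -0.17 without a count minimum (0.0257) and at -0.18 with quantile normalization (0.0384). It did not pass with the block and a plain variance model or with a pair left out. Sox9 (0.11 to 0.21), Nkx2-1 (0.04 to 0.14), Grhl2 (0.01 to 0.12) and Elf3 (0.05 to 0.25) kept their direction under all 28 but moved in size. Sox9 was lowest without pair 3. Reversed were Sox21 (0.02 with edgeR and 0.03 with DESeq2 on 9 libraries), Foxa1 (0.02 and 0.03), Sox4 (0.03 and 0.03, and 0.0033 without replicate 5 in both models, in a range of -0.07 to 0.0033 over the pairs left out) and Klf5 (-0.02 without replicate 6 in both models, in a range of -0.02 to 0.06). The count models differ from limma here in both the model and the number of libraries. Their 9 libraries hold control 3 without ablation 3, and they had no term for the pair. Control 3 was the lowest control for Sox21 (1303 normalized counts), Foxa1 (1764), Sox4 (2102), Nkx2-1 (1293) and Elf3 (5314). It was not the lowest for Sox2, Sox9, Grhl2 or Klf5. The cause of the differences between the models was not tested. Foxa2 stayed higher by 4.86 to 6.22 normalized counts without any one pair. The exact permutation test then gave p = 0.00794, the smallest that 5 against 5 libraries can give. Since the full groups did not overlap, no other p was possible, so this adds no support.

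Of all genes, 0 passed with the library set, and 150 with the replicate block (93 higher and 57 lower). With the block, 176, 90, 8, 77, 106 and 140 genes passed without replicate 1, 3, 4, 5, 6 and 7, and 168 with quantile normalization, 356 without a count minimum, and 16 within library set 1 and 109 within set 2. Without the block, 3 genes passed when no count minimum was set. DESeq2 called 10 and edgeR 0 on 9 libraries (806 at an unadjusted p under 0.05), and limma with the library set had 1083 at that level. With a plain variance model, 0 passed with the block (2190 unadjusted). The response differed between library sets for 0 genes, or 1 with the block, which was none of the 9 tested factors. The block changed no call among the factors other than that of Sox2. Foxa2 rests on few counts, 1 to 11 reads in each of the 9 libraries with recovered reads.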

Other observations

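Marker lists of other cell types were counted beside the factors, and 0 of their genes passed in either model except Trp63 among the basal markers. At an unadjusted p under 0.05, the paired limma model had 7 of 13 basal markers (Trp63 and Itga6 higher, and Krt17, Dapl1, Itgb4, Col17a1 and Dlk2 lower) and 2 of 3 tested tuft markers (Pou2f3 and Avil, both lower), beside 17.6% of all genes, and none of the other cell type markers. Summed normalized counts of the 6 tuft markers were 236 to 473 after ablation and 436 to 580 in the control. Avil, an actin-binding protein of tuft cells, had 137 ± 52.9 and 237 ± 87.6 (log2 fold change -0.79, limma adjusted p = 0.181 in the paired model). Dclk1, the third tested and the most abundant at 192, was not lower, with a log2 fold change of 0.06 and 3 pairs higher and 3 lower (limma adjusted p = 0.9 in the paired model). The 12 multiciliated markers summed to 159 to 231 and 196 to 251, with Rsph1 the most abundant at 128 and Cfap126 at 23.1 ± 7.94 and 29.9 ± 7.55 (-0.42, 0.319). The lists with a member with a log2 fold change above 0.5 were the secretory, with Sec14l3 (0.58, limma adjusted p = 0.347 in the paired model) and the ionocyte list, with Atp6v1c2 (0.70, 0.333). In other lists, the genes that differed most were Clic5 (alveolar type 1, -0.27), Lyz2 (alveolar type 2, -0.23), Krt4 (hillock, -0.11), Agr2 (goblet, -0.03), Ptprc (immune, -0.52) and Pdgfra (fibroblast, 0.03). The 5 endothelial markers had no tested gene, with Pecam1 the most abundant at 6.13.

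Of the 19 genes within 10 kb of a factor, 7 were tested, and 6 of the 19 were listed at 0 in every library. Besides those described with Sox2, Sox21, Nkx2-1 and Grhl2, they were Gm26973, antisense to Nkx2-1 (log2 fold change 0.08), the aminopeptidase gene Rnpep upstream of Elf3 (-0.10), and Gm26642, antisense to Elf3 and sharing 162 bases of exon with it, which was counted at 0.286% of Elf3 and was higher in 6 of 6 pairs (0.36, limma adjusted p = 0.326 in the paired model). None of the 7 passed.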
